A study of Mus musculus with 8 samples.

Results

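The genes of heme synthesis were described here by their mRNA levels in mouse bone marrow and fetal liver, with and without Col18a1, the gene of the collagen XVIII alpha-1 chain. The members were chosen by name: Alas1, Alas2, Alad, Uros, Urod, Cpox, Ppox and Fech, which encode enzymes of the pathway, and Abcb10, which encodes a transporter of the inner mitochondrial membrane. They are 9 of the 18194 genes that the annotation of the array, the Affymetrix Mouse Genome array, ties to a probe set of their own, and they hold 22 such probe sets. All 9 members passed the filter on low values, as did 13136 genes in all.

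Total RNA of flushed marrow and of dispersed fetal liver was hybridised to 8 arrays, in 4 groups of 2. Bone marrow came from femurs and tibias of male mice aged 3 months, of genotype Col18a1+/+ (wild-type) or Col18a1-/- (knockout). Fetal liver came from embryos of both genotypes at embryonic day 14.5, whose sex is labelled undetermined. All groups were on the strain given as C57B6/J, no agent was given, each array holds RNA of 2 pooled littermates, and the labels do not describe how the Col18a1 allele was made. The marrow and liver were not sorted, so each value is that of a mixture of cells, in which fewer cells of a type and less RNA per cell cannot be told apart. With 2 arrays a group the number of arrays limits the precision, and the p-values measure the spread between pools.

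The Col18a1 probe sets were lower in the knockout arrays of both tissues. On one of them wild-type marrow read 7.84 and 7.85 and knockout marrow 5.63 and 5.99, while wild-type fetal liver read 9.06 and 9.18 and knockout fetal liver 8.17 and 8.06 (log2 intensity, the scale of every level below). That difference passed in bone marrow (limma adjusted p over all probe sets = 0.00268) and missed the threshold in fetal liver (limma adjusted p = 0.0546), where the other Col18a1 probe set passed (limma adjusted p = 0.0034). In fetal liver the genotypes also differed in sex-linked transcripts: Xist, transcribed from an inactive X chromosome, was at 11.04 and 11.22 in the wild-type arrays and 4.97 and 4.77 in the knockout arrays, and the Y-linked Eif2s3y was at 3.29 and 3.00 against 9.38 and 9.42. Genotype and this difference cannot be told apart in fetal liver, which bears on Alas2 because that gene lies on the X chromosome. In bone marrow Xist stayed between 4.61 and 5.03 in all 4 arrays. The median intensity of an array lay between 40.8 and 42.6, and replicate arrays correlated at 0.992 to 0.997. The median gene's SD within a group was 0.0631 in wild-type bone marrow and 0.106, the highest of the groups, in knockout fetal liver.

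Heme is an iron-holding ring that carries oxygen in hemoglobin and electrons in cytochromes. Its synthesis starts in mitochondria, where an aminolevulinate synthase joins glycine and succinyl-CoA, runs through the cytosol, and returns to mitochondria, where iron is put into the ring. The synthase has a housekeeping form, encoded by Alas1 and known from liver for its repression by heme, and an erythroid form, encoded by Alas2 and known for its dependence on GATA1 and on iron. Bone marrow makes red cells in the adult and the liver makes them in the mid-gestation fetus, so both tissues hold erythroid cells with a high demand for heme.

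Between the tissues the members did not share a direction. Both synthase genes, Alas1 and Alas2, were lower in fetal liver than in bone marrow in both genotypes, by 1.73-fold to 2.08-fold. Alad and Cpox were higher in fetal liver in both genotypes, by 1.54-fold to 2.55-fold. The other members, on their brightest probe sets, differed from bone marrow by at most 0.25 log2. In limma's moderated test with Benjamini-Hochberg adjustment over all 13136 genes, at a threshold of 0.05, 4 of the 9 members passed in wild-type, 2 higher and 2 lower, where 65.9% of all genes passed, 39.2% higher and 26.8% lower. In knockout 5 of 9 passed, 2 higher and 3 lower, against 63.8% of all genes, 36.6% higher and 27.1% lower. The wild-type count rested on the choice of probe set: it was 8 of 9 with the probe set of largest interquartile range, where 9229 of 12345 genes passed, and 8 of 9 with the mean over a gene's probe sets, where 8252 of 12215 did. That choice also changed the knockout calls. With the probe set of largest interquartile range, Ppox (-0.44), Fech (-0.60) and Abcb10 (-1.07) passed in knockout as well, and Uros (0.23) did not. The median size of the members' difference on their brightest probe sets was 0.081 in wild-type and 0.25 in knockout, where that of all genes tested was 0.48 and 0.45. This median also rests on the choice of probe set. Other probe sets of Uros, Ppox, Fech and Abcb10 reached 0.64, -0.89, -0.47 and -0.93 in wild-type. All 4 fetal liver arrays lay apart from all 4 bone marrow arrays for 4 of 9 members on their brightest probe sets, and for 67.5% of all genes tested. Uros, Ppox, Fech and Abcb10 each have a dimmer probe set on which the tissues lay apart as well. Tissue, age and, in wild-type, sex-linked expression change together in these comparisons and cannot be told apart.

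**Figure D1:**
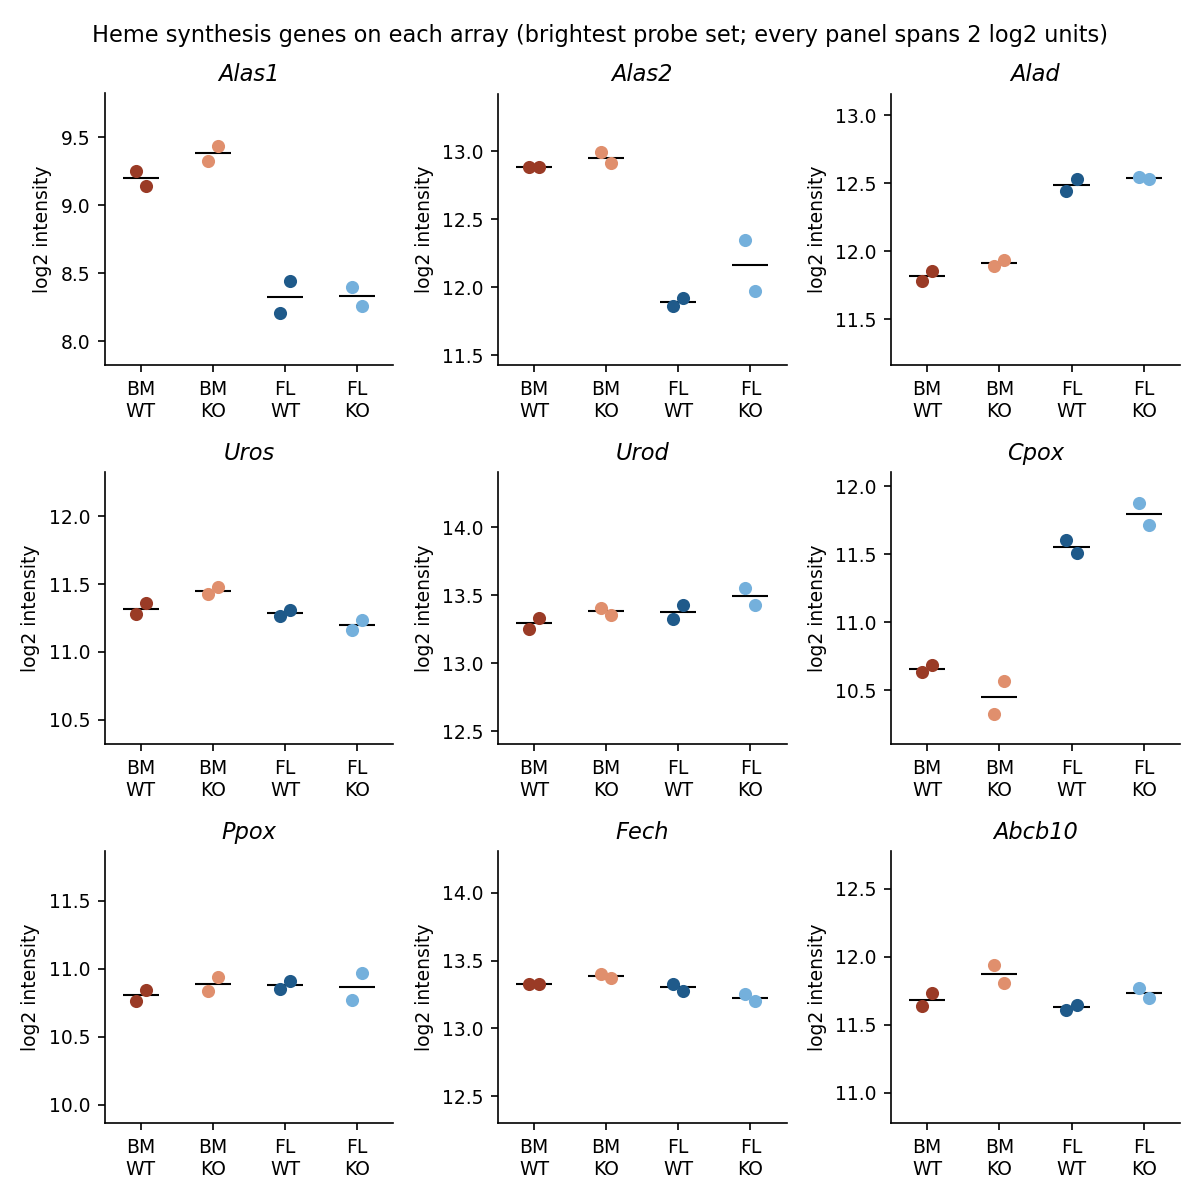
Level of each member on its brightest probe set (log2 intensity, vertical axis) on every array, by tissue and genotype, with one point for each array and 2 arrays a group. Alas1 and Alas2 sit lower in all 4 fetal liver arrays than in all 4 bone marrow arrays, Alad and Cpox sit higher, and the other members overlap between tissues.

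Alas2, the erythroid synthase, has 1 probe set. It read 12.88 and 12.88 in wild-type marrow, 12.99 and 12.92 in knockout marrow, and 11.86 and 11.92 in wild-type and 12.35 and 11.98 in knockout fetal liver. Every fetal liver array was below every bone marrow array, and knockout replicate 1 was the highest of the fetal liver arrays. The difference of fetal liver from bone marrow was -0.99 ± 0.12 in wild-type (standard error, limma adjusted p = 0.000115) and -0.79 ± 0.12 in knockout (limma adjusted p = 0.000507). In wild-type this is a 1.99-fold lower level.

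Alas1, the housekeeping synthase, read 9.26 and 9.14 in wild-type marrow and 9.33 and 9.44 in knockout marrow, against 8.21 and 8.44 in wild-type and 8.40 and 8.26 in knockout fetal liver. The tissues did not overlap. Its difference was -0.87 ± 0.11 in wild-type (limma adjusted p = 0.00013) and -1.05 ± 0.11 in knockout (limma adjusted p = 4.3e-05). A second, dimmer Alas1 probe set was also lower in fetal liver, with differences of -0.58 and -0.60. Within an array the level of Alas2 relative to Alas1 shifted by -0.12 from bone marrow to fetal liver in wild-type and by 0.26 in knockout.

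Alad encodes aminolevulinate dehydratase, which pairs the synthase's product into the first ring. It read 11.78 and 11.86 in wild-type marrow and 11.89 and 11.93 in knockout marrow, and 12.44 and 12.53 in wild-type and 12.54 and 12.53 in knockout fetal liver. All fetal liver arrays were above all bone marrow arrays. The difference was 0.67 ± 0.09 in wild-type (limma adjusted p = 0.000152) and 0.63 ± 0.09 in knockout (limma adjusted p = 0.00025), and the second Alad probe set gave 0.52 and 0.90. Relative to Alas2 on the same array, Alad was higher in fetal liver by 1.66 in wild-type and 1.42 in knockout.

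Cpox encodes coproporphyrinogen oxidase, which acts between the mitochondrial membranes. It read 10.63 and 10.69 in wild-type marrow and 10.33 and 10.57 in knockout marrow, and 11.60 and 11.51 in wild-type and 11.88 and 11.72 in knockout fetal liver. Every fetal liver array was above every bone marrow array. Its difference, the widest among the members in knockout, was 0.90 ± 0.11 in wild-type (limma adjusted p = 0.000107) and 1.35 ± 0.11 in knockout (limma adjusted p = 8.89e-06). The other 2 Cpox probe sets were higher in fetal liver as well, by 0.59 and 0.41 in wild-type and by 0.52 and 0.50 in knockout, and the dimmest of them did not pass in wild-type (limma adjusted p = 0.0552). The calls of Alas1, Alas2, Alad and Cpox held in both genotypes, with the same direction, under each of the 17 alternative settings, which include leaving out each array.

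Since these members moved in opposite directions, the 250 bases before the annotated start of each are shown here (RefSeq sequences, build GRCm38.p6, read 5′ to 3′ on the gene's strand, the start site lying just after the last base). Capitals mark matches to a pair of motifs searched on both strands: the GATA motif (spelled AGATAA or AGATAG, or with a first T as TGATAA or TGATAG) and a KLF-type motif (CCNCNCCC), which may overlap one another and themselves. Where a gene has a second start, the window farthest upstream is shown. Alas2 is at chrX:150547167-150547416 on the plus strand, Alas1 at chr9:106247955-106248204 on the minus strand, Alad at chr4:62520064-62520313 on the minus strand and Cpox at chr16:58669958-58670207 on the plus strand.
Alas2: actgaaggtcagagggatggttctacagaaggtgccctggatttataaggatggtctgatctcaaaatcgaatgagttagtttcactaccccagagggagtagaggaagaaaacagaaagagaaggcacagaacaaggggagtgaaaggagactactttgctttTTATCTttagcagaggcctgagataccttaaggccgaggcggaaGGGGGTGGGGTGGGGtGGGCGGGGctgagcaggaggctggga
Alas1: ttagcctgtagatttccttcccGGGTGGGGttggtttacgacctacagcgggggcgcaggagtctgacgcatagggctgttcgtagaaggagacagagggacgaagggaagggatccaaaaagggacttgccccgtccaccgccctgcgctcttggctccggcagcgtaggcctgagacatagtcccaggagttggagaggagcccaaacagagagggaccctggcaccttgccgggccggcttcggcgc
Alad: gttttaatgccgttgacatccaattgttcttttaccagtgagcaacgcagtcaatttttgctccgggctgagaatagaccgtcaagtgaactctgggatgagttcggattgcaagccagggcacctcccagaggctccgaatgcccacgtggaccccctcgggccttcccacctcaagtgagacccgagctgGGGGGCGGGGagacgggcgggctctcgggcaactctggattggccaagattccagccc
Cpox: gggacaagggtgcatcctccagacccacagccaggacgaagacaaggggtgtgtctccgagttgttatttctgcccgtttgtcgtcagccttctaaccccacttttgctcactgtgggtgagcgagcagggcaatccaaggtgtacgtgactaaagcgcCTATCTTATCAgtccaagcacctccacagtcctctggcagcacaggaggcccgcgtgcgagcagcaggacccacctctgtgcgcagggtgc

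The Alas2 window holds a GATA match whose first base lies at -86 from the start, and 4 KLF-type matches whose first bases lie at -42, -40, -35 and -26, of which the first 3 overlap. The Cpox window holds overlapping GATA matches at -91 and -86 and no KLF-type match. The Alas1 and Alad windows hold KLF-type matches, at -228 in Alas1 and at -58 and -56 in Alad, and no GATA match. So the GATA letters occur both in a member that was lower in fetal liver and in one that was higher. Of 32851 promoter windows of this length, 26.5% hold the GATA motif and 45.9% the KLF-type motif. Over the 11 windows searched, which belong to 8 members, 3 hold the GATA motif and 6 the KLF-type motif. No window of Fech was searched, since chromosome 18, where it lies, was left out for the members. That chromosome was not left out of the 32851. A match here is a description of the letters, and binding was not measured.

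The remaining members did not pass in wild-type on their brightest probe sets. Uros, whose enzyme closes the ring of uroporphyrinogen, read 11.28 and 11.36 in wild-type marrow and 11.42 and 11.48 in knockout marrow, and 11.26 and 11.31 in wild-type and 11.16 and 11.24 in knockout fetal liver. The wild-type tissues overlapped, while both knockout fetal liver arrays were below all 4 bone marrow arrays. The difference was -0.035 ± 0.09 in wild-type and -0.25 ± 0.09 in knockout (limma adjusted p = 0.0321). That knockout call was lost under 10 of 17 alternatives: without the filter, with array weights, with the compared arrays alone, with the probe set of largest interquartile range, where the difference was 0.23, with the mean over probe sets, and on leaving out either wild-type bone marrow array, either knockout bone marrow array or knockout fetal liver replicate 1. The second Uros probe set ran the other way, at 6.81 and 6.92 in wild-type bone marrow against 7.45 and 7.56 in wild-type fetal liver, a difference of 0.64 (limma adjusted p over all probe sets = 0.00149).

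Urod encodes uroporphyrinogen decarboxylase, the last cytosolic step. Its brightest probe set spanned 13.25 to 13.41 over the bone marrow arrays and 13.32 to 13.55 over the fetal liver arrays. The tissues overlapped, and the difference was 0.081 ± 0.09 in wild-type and 0.11 ± 0.09 in knockout. The second probe set gave 0.10 and -0.067, so neither Urod probe set passed in either genotype.

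Ppox, Fech and Abcb10 gave different answers on different probe sets. Ppox encodes protoporphyrinogen oxidase. Its brightest probe set spanned 10.76 to 10.94 in bone marrow and 10.77 to 10.97 in fetal liver, with differences of 0.077 in wild-type and -0.019 in knockout. On another Ppox probe set the levels were 7.67 and 7.62 in wild-type marrow and 7.75 and 7.63 in knockout marrow, against 6.66 and 6.84 in wild-type and 7.21 and 7.29 in knockout fetal liver. There the tissues did not overlap and the differences were -0.89 (limma adjusted p = 0.000178) and -0.44 (limma adjusted p = 0.0124). The third Ppox probe set, the only member probe set that did not reach the filter's floor, stayed below 4 on every array. It passed in wild-type, with a difference of -0.37 (limma adjusted p = 0.0351), and is among the lower ones counted by probe set below. Since all its levels lie under the floor, the size of that difference is not measured.

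Fech encodes ferrochelatase, which inserts the iron. Its brightest probe set spanned 13.32 to 13.40 in bone marrow and 13.20 to 13.33 in fetal liver, with differences of -0.024 in wild-type and -0.16 in knockout (limma adjusted p = 0.132 for the latter). Its other 3 probe sets were lower in fetal liver, by differences of -0.37, -0.47 and -0.27 in wild-type and -0.50, -0.60 and -0.41 in knockout. The first 2 of these passed in both genotypes. The dimmest passed in knockout and not in wild-type (limma adjusted p = 0.101), and it lay above the floor of 5 on the 2 knockout marrow arrays alone, at 5.14 and 5.10, with 4.55 to 4.96 on the other 6. Since all its fetal liver levels lie under the floor, the size of its difference is not measured. It is among the lower ones counted by probe set in knockout below.

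Abcb10, the transporter, spanned 11.64 to 11.94 in bone marrow and 11.61 to 11.77 in fetal liver on its brightest probe set, with differences of -0.056 and -0.14. A second probe set gave -0.22 and 0.13. On the third the levels were 7.50 and 7.49 in wild-type marrow and 7.50 and 7.69 in knockout marrow, against 6.54 and 6.59 in wild-type and 6.30 and 6.75 in knockout fetal liver. That probe set passed with differences of -0.93 (limma adjusted p = 0.000885) and -1.07 (limma adjusted p = 0.000415).

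Counted by probe set, with the adjustment over all 45101 probe sets and no filter, 13 of the 22 member probe sets passed in wild-type, 5 higher and 8 lower, against 42.4% of all probe sets. In knockout 13 of 22 passed, again 5 higher and 8 lower, against 39.7% of all probe sets. Of the 22, 21 reached the filter's floor. The shares of all probe sets also count those that did not, so they are taken over unlike sets. The higher ones belonged to Alad, Cpox and, in wild-type, Uros, and the lower ones to Alas1, Alas2, Ppox, Fech and Abcb10. The part of each transcript that a probe set reads was not analysed here, and which of the disagreeing probe sets of Uros, Ppox, Fech and Abcb10 stands for the gene's transcripts was not tested.

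**Figure D2:**
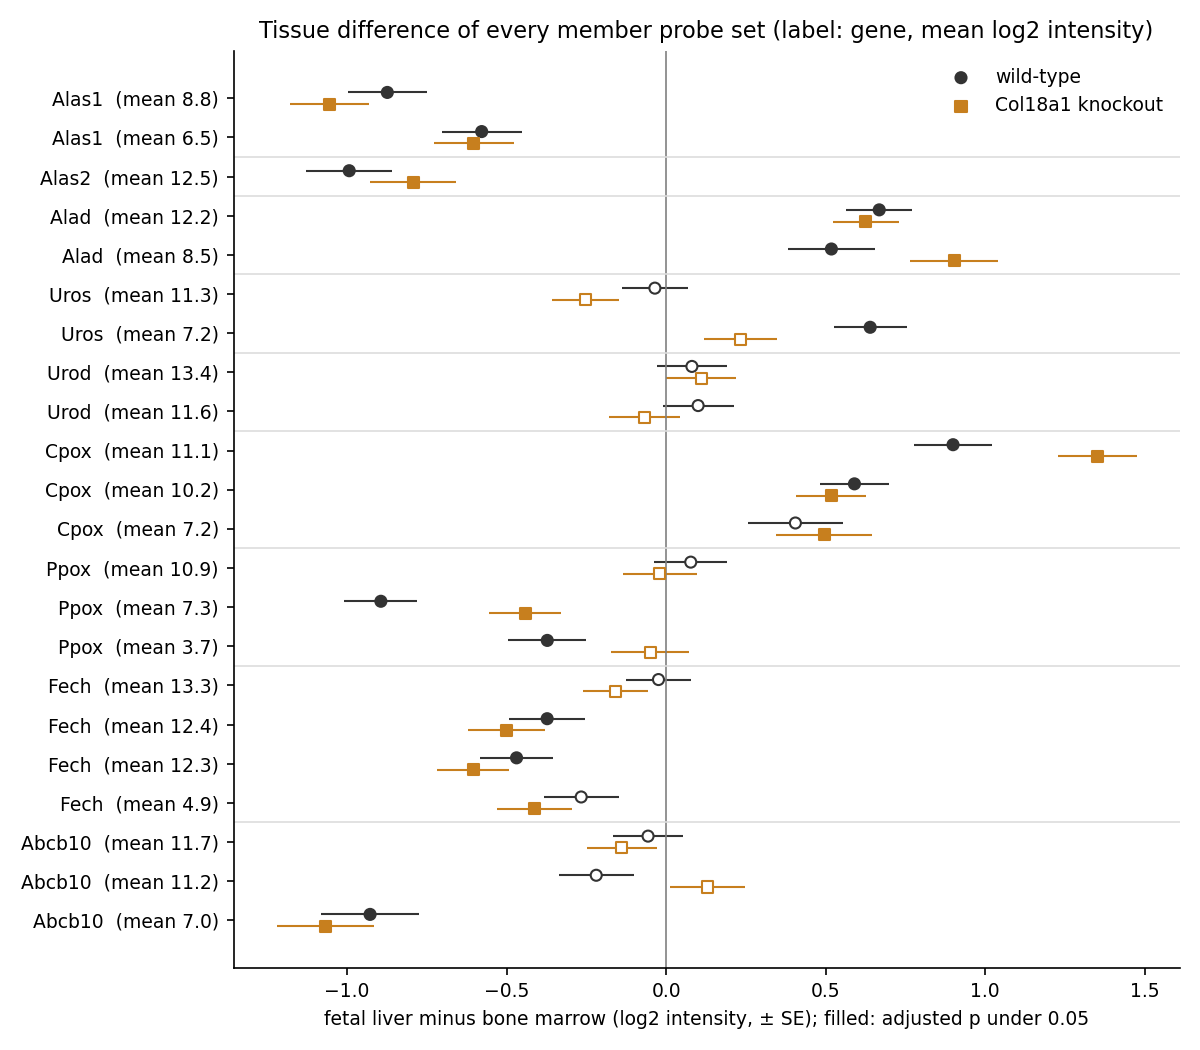
Difference of fetal liver from bone marrow (log2 intensity, horizontal axis) for each of the 22 member probe sets, grouped by gene, in wild-type and knockout. Alas1 and Alas2 lie left of 0 and Alad and Cpox right of it on every probe set. The brightest probe sets of Ppox, Fech and Abcb10 lie near 0 and others of the same genes lie to the left. Exceptions in knockout are a dimmer Abcb10 probe set at 0.13 and a dimmer Ppox probe set near 0, at -0.05.

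The genes around the pathway were taken from lists written with earlier results of these data known. For each list below, the shares of all genes were 39.2% higher and 26.8% lower in wild-type. In knockout they were 36.6% and 27.1%. Among genes that supply the substrates and move the intermediates, 8 of 14 tested were higher in fetal liver and 1 lower in wild-type, and 6 were higher and 1 lower in knockout, with median differences of 0.43 and 0.19 where all genes had 0.14 and 0.11. Pgrmc1, a heme-binding partner of ferrochelatase, rose by 1.71 in wild-type and 1.49 in knockout. Lonp1, the mitochondrial protease that degrades the housekeeping synthase, rose by 1.41 and 1.31, and Abcb6, a porphyrin transporter, by 1.08 and 0.78. Tspo, an outer mitochondrial membrane protein that binds porphyrins, had differences of -0.69 and -1.08.

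The next list held genes of iron-sulfur cluster assembly and of iron sensing, which tie heme synthesis to iron. Of its 8 tested genes, 3 were higher and 2 lower in wild-type, and 3 higher and 3 lower in knockout. Aco1, the iron regulatory protein that represses Alas2 translation when iron is scarce, was higher by 1.19 and 1.38. Lyrm4 and Nfs1, which form the cysteine desulfurase complex, were higher by 1.25 and 0.91 in wild-type and by 0.76 and 0.61 in knockout, while Isca1 had differences of -1.15 and -0.97. Of the genes of heme export and breakdown, 7 of 11 were higher and 2 lower in wild-type, and 6 higher and 2 lower in knockout, with medians of 0.75 and 0.26. Of the 11, 3 were under the filter's floor of 5 on all 4 marrow arrays and were tested only through fetal liver, so their size there is not measured. All 3 are counted among the higher genes in both genotypes and enter the medians. Those counts and medians thus rest in part on unmeasured marrow levels. Among these, Hpx, the plasma heme-binding protein made by hepatocytes, was at 3.95 to 4.68 in marrow and 10.98 to 11.60 in fetal liver, and Flvcr2 at 4.49 to 4.81 and 7.22 to 7.50. Hmox1, the heme oxygenase, was measured in both tissues and was higher by 1.20 and 1.77. Slc48a1, which carries heme out of lysosomes, had differences of -0.47 and -0.77.

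Of 12 regulators of the pathway, 3 were higher and 6 lower in wild-type, and 5 higher and 5 lower in knockout. Ppargc1a, a coactivator of Alas1 in liver, was under the floor on all 4 marrow arrays, at 3.72 to 4.66, and at 6.64 to 6.95 in fetal liver. It is counted among the higher ones against that unmeasured level. Gata1, the erythroid factor that drives Alas2, was higher by 0.55 and 0.84, and its partner Ldb1 was higher by 0.91 and 1.04. Nrf1, a factor of mitochondrial genes, had differences of -0.89 and -0.72, and Lmo2, another partner of Gata1, of -0.48 and -0.49. The regulators did not share a direction.

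Markers of the cell types in the tissues were measured beside the members. Of 14 tested erythroid markers, 3 were higher and 5 lower in wild-type and 4 higher and 2 lower in knockout, with median differences of 0.01 and 0.04. Their summed intensity was 16.34 to 16.42 in bone marrow and 16.18 to 16.31 in fetal liver on the log2 scale. Car1, a red cell carbonic anhydrase, had differences of -3.53 and -3.65 and Rhd of -0.47 and -0.50, while the erythropoietin receptor gene Epor was higher by 0.42 and 0.43. The erythroid markers thus did not share a direction.

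**Figure D3:**
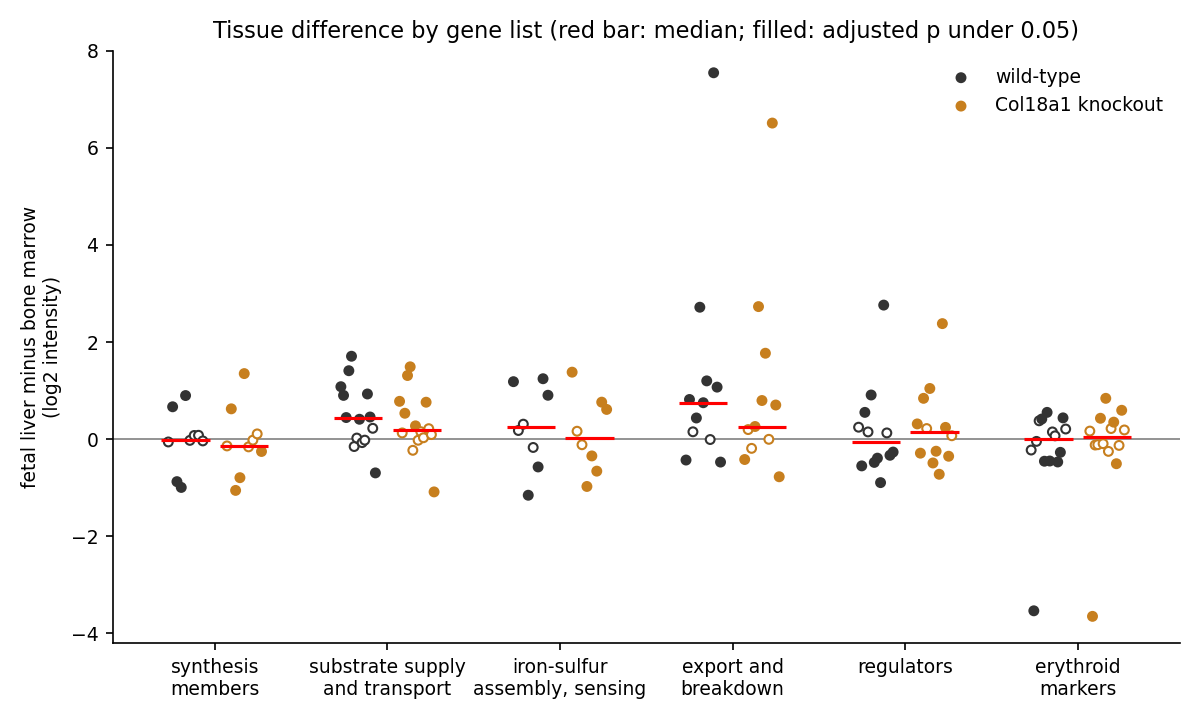
Difference of fetal liver from bone marrow (log2 intensity, vertical axis) for the tested genes of the members, of the 4 lists of heme-related genes and of the erythroid markers, in wild-type and knockout, with one point for each gene, filled where it passed, and a red bar at the median. The members lie between -1.05 and 1.35, Hpx, under the floor in marrow, is drawn at 7.55 and 6.51 among the export and breakdown genes, and Car1 at -3.53 and -3.65 among the erythroid markers.

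All 10 hepatocyte markers were higher in fetal liver in both genotypes, with medians of 7.68 and 7.74, and their summed intensity rose from between 8.13 and 8.36 to between 16.38 and 16.47. Of the 10, 5 were under the floor of 5 on all 4 marrow arrays, so the medians hold differences against unmeasured levels. Afp, the fetal liver's plasma protein, was one of them, at 4.36 to 4.95 in marrow and 14.46 to 14.66 in fetal liver. All 11 neutrophil and monocyte markers were lower, with medians of -3.37 and -3.59 and summed intensities of 17.10 to 17.13 in bone marrow and 13.43 to 13.90 in fetal liver. All 7 B-lineage markers were lower, 1 of them under the floor on all fetal liver arrays, with medians of -4.80 and -4.73 and summed intensities of 13.19 to 13.36 against 8.32 to 8.58. Among 6 macrophage markers 2 were higher and 2 lower in each genotype. The part of these cell types in the members' tissue differences was not tested.

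The loss of Col18a1 left no member past the threshold in adult bone marrow. Of 9 members 0 passed, where 0.411% of all genes did, and 0 had an unadjusted limma p under 0.05. The differences of knockout from wild-type ran from -0.21 in Cpox (95% interval -0.46 to 0.04) to 0.19 in Abcb10 (-0.03 to 0.40) and Alas1 (-0.07 to 0.44). The knockout mean was the higher one in 8 of 9 members on their brightest probe sets, with a median of 0.088, where 54.4% of all genes had a positive difference and their median was 0.0138. Dimmer probe sets of the members just named did not all keep the direction. Those of Abcb10 gave -0.17 and 0.10, that of Alas1 -0.09, and those of Cpox 0.0003 and 0.11. The 2 knockout arrays lay apart from the 2 wild-type arrays in 8 of 9 members on the brightest probe sets, as they did in 43.1% of all genes. For Alas2 the difference was 0.07, with an interval of -0.21 to 0.35. Counted by probe set, 0 of 22 passed, against 0.109% of all probe sets.

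Of the 57 tested genes on the erythroid list and the lists of heme substrates, iron-sulfur assembly, heme export and regulators, 0 passed in bone marrow with limma, and 3 had an unadjusted p under 0.05, as had 886 of all 13136 genes. The megakaryocyte markers did: all 7 had lower means in the knockout and 6 passed, with a median of -1.19 and with Gp9 missing the threshold at -0.82 (limma adjusted p = 0.0644), and their summed intensity was 14.01 and 13.75 in wild-type and 12.74 and 12.82 in knockout. Whether that shift bears on the members was not tested.

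In fetal liver 0 of 9 members passed between genotypes, against 0.32% of all genes, with 0 at an unadjusted limma p under 0.05, and 0 of 22 probe sets, against 0.0554% of all probe sets. On the brightest probe sets Alas2 had the widest difference, 0.27 ± 0.12 (95% interval -0.01 to 0.55, limma adjusted p = 0.243), followed by Cpox with 0.24 ± 0.11 (-0.01 to 0.50, limma adjusted p = 0.245). The others ran from -0.084 in Uros to 0.12 in Urod. Among dimmer probe sets, that of Ppox had 0.50 (0.24 to 0.76, limma adjusted p over all probe sets = 0.135) and that of Alad 0.41 (0.10 to 0.72, limma adjusted p = 0.208), and these were the 2 of 22 with an unadjusted p under 0.05. On the brightest probe sets the knockout mean was higher in 6 of 9, where 44.8% of all genes had a positive difference, and the genotypes did not overlap in 7 of 9, where 50.1% of all genes did not overlap. Without knockout replicate 2 the Alas2 difference was 0.46 and passed (limma adjusted p = 0.0399), but 1010 genes then passed, against 42 with all arrays. The Xist and Eif2s3y values above split the same arrays. Of the 57 genes of the heme and erythroid lists 0 passed here with limma, and 18 had an unadjusted p under 0.05, as had 2890 of all 13136 genes. In these lists Gata1 had 0.41, Clpx, a chaperone that activates the synthase, -0.52, and Slc25a37, the mitochondrial iron importer of erythroid cells, 0.23.

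**Figure D4:**
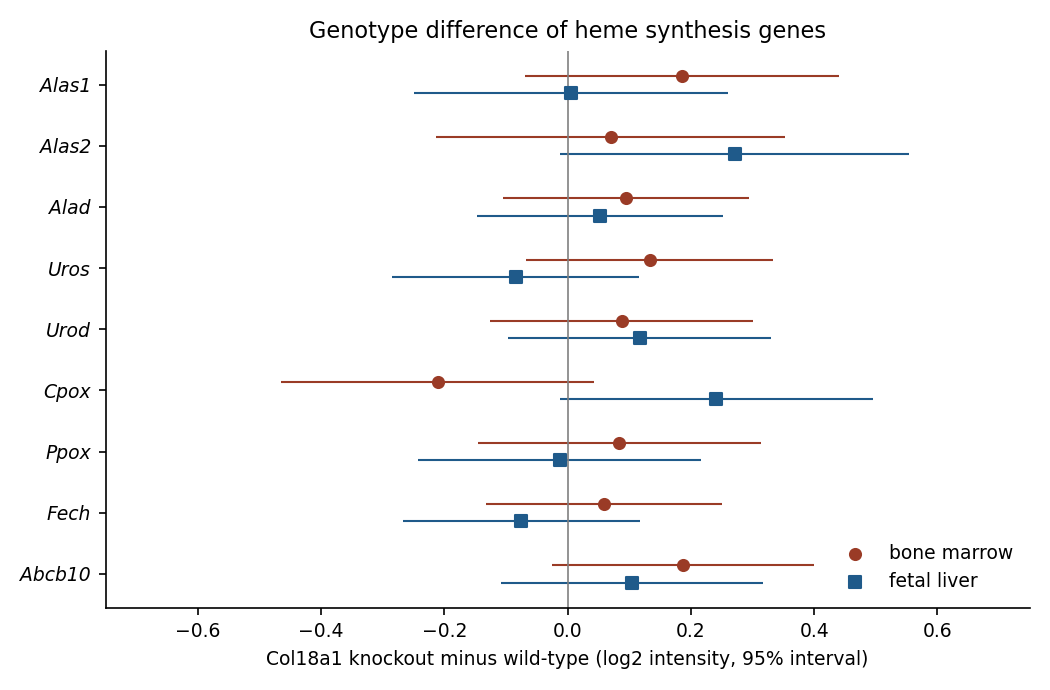
Difference of Col18a1 knockout from wild-type (log2 intensity, horizontal axis) for each member on its brightest probe set, in bone marrow (circles) and fetal liver (squares), with 95% intervals from the limma fit. Every interval holds 0, and Cpox lies at -0.21 in bone marrow and at 0.24 in fetal liver.

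The genotype differences in the 2 tissues were set against each other in an interaction test. Of 9 members 0 passed, against 0.0914% of all genes, and 1 of 9, Cpox, had an unadjusted limma p under 0.05. On the brightest probe sets Cpox came nearest, with the fetal liver difference exceeding that of bone marrow by 0.45 ± 0.16 (95% interval 0.09 to 0.81, limma adjusted p = 0.252). In its arrays the knockout values were the lower ones in bone marrow and the higher ones in fetal liver. The other 2 Cpox probe sets gave interactions between -0.073 and 0.09. The remaining members ran from -0.22 in Uros to 0.20 in Alas2 on their brightest probe sets. Dimmer probe sets reached further, with 0.45 in Ppox, -0.41 in Uros and 0.39 in Alad. Over all 22 probe sets 0 passed and 3 had an unadjusted limma p under 0.05. These were the brightest of Cpox and the dimmer ones of Ppox and Uros just given.

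The genes whose profile over the 8 arrays was nearest to that of each synthase were found by the root-mean-square distance between log2 profiles centred on their own means. Nearest to Alas2 were Uhmk1 (0.047), Mier3 (0.061) and Plekhm3 (0.067). Nearest to Alas1 were Tdrd7 (0.056), Hexa (0.061) and Myd88 (0.066). The profiles being matched spanned 1.13 in Alas2 and 1.23 in Alas1, and all genes were measured on the same arrays.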

How the data were processed

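The deposited table holds linear intensities of 45101 probe sets on 8 arrays, which the authors made with RMA, per the submitters' processing notes (version not given in the sources used here). RMA corrects background, normalises arrays to one distribution and summarises probes, so a shift common to most genes is removed. Values were put on the log2 scale. Of the probe sets, 34958 name 1 gene, 932 name several and 9211 none, and only the first kind was used for genes. Each gene was read from its brightest probe set, and 13136 genes at 5 or more on at least 2 arrays were tested with limma 3.58.1 in R 4.3.3 (1 mean per group, all 8 arrays, empirical Bayes, 4 residual and 4.48 prior degrees of freedom), with Benjamini-Hochberg adjustment and a threshold of 0.05. Intervals are at 95%. The script was checked on simulated data. The members and lists were chosen with earlier results of these data known. Named beside the members were up to 4 genes of each list by the size of limma's statistic between tissues and up to 2 between genotypes, and the 3 nearest profiles of Alas1 and Alas2; Clpx, Slc25a37 and Gata1 are examples of those. Alternatives changed the filter, probe set choice, normalisation, array weights, arrays fitted and the replicate block, and left out each array.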

Additional observations from a re-analysis of the deposited data

How the results depend on the processing

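The count of members passing between tissues in wild-type rose from 4 to 8 with the probe set of largest interquartile range and to 8 with the mean over probe sets, where 9229 of 12345 and 8252 of 12215 genes passed. The count between genotypes in fetal liver was 0 to 1 on leaving out 1 array each. The other counts stayed within 1.5 times their value under every alternative run. With replicate number as a block, 0, 0, 0, 4 and 5 members passed for genotype in bone marrow, genotype in fetal liver, the interaction, and tissue in wild-type and in knockout, as without the block. The labels do not say whether same-numbered arrays belong together. The correlations of their deviations were -0.1246 to -0.0008 over 6 pairs of groups, which does not settle it.

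Of the single differences, 702 kept their direction and side of the threshold, 34 changed sign, 11 gained and 9 lost a call. With the probe set of largest interquartile range the fetal liver genotype difference was 0.4978 in Ppox and -0.0393 in Abcb10, the bone marrow one -0.0188 in Fech, the interaction 0.3852 in Alad and 0.4519 in Ppox, and the tissue difference 0.6396 in Uros and -0.8938 in Ppox in wild-type and 0.2320 in Uros in knockout. With the mean over probe sets the fetal liver genotype difference was -0.0540 in Alas1 and 0.2469 in Ppox, the interaction 0.1715 in Alad, -0.0695 in Urod, 0.2261 in Ppox and 0.0421 in Abcb10, and the wild-type tissue difference 0.3023 in Uros and -0.3963 in Ppox. With median centring the values were -0.0336 for Alas1 between fetal liver genotypes, -0.0061 for the Urod interaction, and 0.0114 for Uros and 0.0226 for Fech between wild-type tissues. Quantile normalisation gave 0.0029 for Ppox between fetal liver genotypes.

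Leaving out 1 array each gave ranges across 0 for fetal liver genotype in Alas1 (-0.1102 to 0.1209) and Ppox (-0.1100 to 0.0846), for the interaction in Alad (-0.0875 to 0.0030), Urod (-0.0328 to 0.0901) and Ppox (-0.1937 to 0.0009), and for tissue in Uros (-0.0773 to 0.0072) and Fech (-0.0520 to 0.0045) in wild-type and Ppox (-0.1164 to 0.0782) in knockout. A group left with 1 array was assumed to vary like the others. The cause of these changes was not tested. With 2 arrays a group, differences of the size seen between genotypes were not past the threshold.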

Other observations

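Proteins that hold heme outside hemoglobin were also on the array. Of 8 tested genes, 2 were higher and 1 lower in fetal liver than in bone marrow in each genotype, with limma over all genes, and the medians were 0.0046 in wild-type and -0.017 in knockout. The shares of all genes were 39.2% higher and 26.8% lower in wild-type, and 36.6% and 27.1% in knockout. Cyp3a11, a liver cytochrome P450, was under the filter's floor of 5 on all 4 marrow arrays, at 3.67 to 4.15, and at 6.88 to 7.76 in fetal liver. It is counted among the higher genes against that unmeasured level. Cycs, the cytochrome c of the respiratory chain, was higher by 0.26 in wild-type and 0.27 in knockout. Cyp27a1, a mitochondrial P450 of bile acid synthesis, was lower, with differences of -0.57 and -0.97. Sdhb, a subunit of succinate dehydrogenase, which holds a heme in another of its subunits, had -0.047 and -0.20 and did not pass. Between genotypes 0 of 8 passed with limma in either tissue, where 0.411% of all genes did in bone marrow and 0.32% in fetal liver. An unadjusted limma p under 0.05 was found for 0 in bone marrow and 2 in fetal liver, where 886 and 2890 of all 13136 genes had one. Cyp3a11 had a fetal liver genotype difference of -0.73 that missed the threshold.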
